A study of Mus musculus with 9 samples.

Results

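The genes described here are 3 serine peptidase inhibitors of the Kazal type (*Spink5*, *Spink7* and *Spink12*), 6 serine proteases of the Tmprss11 family (*Tmprss11a*, *b*, *d*, *e*, *f* and *g*) and *St14*, the gene of the membrane-anchored protease matriptase. They are 10 of the 17943 genes in the table, and all 10 have a row there. They were taken by gene identifier and were chosen because *Spink7* and *Tmprss11b* were already known to be seen almost only in the knockout. For that reason their differences between the groups are described below without a test, and they support no statement about the family.

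Bulk RNA-Seq covered 5 control and 4 *Supt6*-KO animals, whose skin was taken at day 10 counted from the last injection. *Supt6* encodes SPT6, a transcription elongation factor, and the *Supt6*-KO mice were K14-CreERT; *Supt6* fl/fl animals given tamoxifen in the first telogen, the resting stage of the hair cycle. The labels call the controls wild-type, whereas the study describes its controls as *Supt6* fl/fl mice given corn oil, so the deletion, the tamoxifen and any Cre transgene that the controls lacked cannot be told apart. The K14 promoter restricts the recombinase to basal keratinocytes and other K14-expressing epithelium, but whole skin was sequenced. The labels name the ear and the study names dorsal skin. Libraries held 29627341 to 30491197 counts in the controls and 30597189 to 30967107 counts in the *Supt6*-KO mice.

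Serine proteases of the outer epidermis cut the junctions that hold corneocytes together and activate one another, and Kazal-type inhibitors bind their active sites and restrain them. *Spink5* encodes LEKTI, whose loss in humans causes Netherton syndrome, a disease of premature shedding and barrier failure. The Tmprss11 proteins are trypsin-like enzymes anchored in the plasma membrane of squamous and airway epithelia, and matriptase works beside them with prostasin and the inhibitors HAI-1 and HAI-2.

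*Supt6* itself was measured first as a check of the labels. It stood at 76.5 ± 17.2 CPM (counts scaled to a common library size with TMM factors, SD, n = 5) in the controls and 25.7 ± 3.31 CPM (n = 4) in the *Supt6*-KO mice, and it fell by 1.57 on the log2 scale (SE 0.18, adjusted p = 1.3e-05 by edgeR's quasi-likelihood test), with every *Supt6*-KO mouse below every control. Of the 4 *Supt6*-KO mice, mouse 4 stood apart. Its median absolute log2 difference from the others over all genes was 0.311 to 0.399, against 0.161 to 0.233 among mice 1, 2 and 3. For this reason several values below are given with and without it.

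Keratinocyte markers were present in every mouse, with a summed level of 23666 ± 949 CPM in the controls and 34881 ± 4842 CPM in the *Supt6*-KO mice. *Krt10*, a keratin of suprabasal cells, was the most abundant on average. In *Supt6*-KO mouse 4 *Krt14* was higher, at 9613 CPM against 7775 CPM of *Krt10*. *Krt1*, the partner of *Krt10*, was called higher and *Trp63*, the factor that maintains basal cells, was called lower, while *Krt5*, *Krt14* and *Krt10* did not pass. Over all genes tested, 20.9% were called higher and 24.9% lower (adjusted p under 0.05 by edgeR and a change of at least 2-fold). Other tissues of the sample moved with the groups as well. The 5 skeletal muscle markers fell from a summed 3588 ± 365 to 579 ± 78.2 CPM, with *Acta1* the most abundant. Of the cartilage markers, 4 of 4 tested fell, from 342 ± 156 to 32.8 ± 2.27 CPM summed over the list, with *Acan* the most abundant and *Matn1* at 1 count in all 9 mice together. Of the sebaceous gland markers 4 of 5 fell, from 6225 ± 548 to 1024 ± 267 CPM, with *Scd1* the most abundant. All 5 markers of the hair shaft and inner root sheath fell, but the controls themselves ran from 2.11 to 1482 CPM. In bulk skin, fewer cells of a type and less RNA per cell cannot be told apart, and the part that tissue composition plays in the values below was not tested.

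Taken as a group, 8 of the 10 genes had a fitted log2 difference of at least 1 toward *Supt6*-KO, beside 21.9% of the 16426 genes tested, and 0 had one of -1 or less, beside 26.7%. In 7 of the 10 every *Supt6*-KO mouse lay above every control, beside 28.9% of the genes tested, and in 0 did every one lie below, beside 31.8%. All 10 passed the filter of 10 counts summed over the mice, 3 of them (*Spink7*, *Tmprss11b* and *Tmprss11d*) only through the *Supt6*-KO libraries. The median fitted log2 difference was 5.15 for the 10 genes and -0.07 for all genes tested. Since the genes were chosen on this contrast, nothing is read from these shares.

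*Spink7* encodes a Kazal-type inhibitor known from squamous epithelium, above all that of the oesophagus. The 5 controls held 0, 1, 1, 1 and 0 counts of it, and *Supt6*-KO mice 1 to 4 held 2392, 1339, 1233 and 270 counts. Scaled, this was 0.0164 ± 0.0150 CPM against 57.6 ± 37.1 CPM. The control libraries were thus at or under 1 read each, a level at which the gene cannot be told from background. The summed counts of each group were divided by its summed TMM-scaled library sizes. This scaled ratio was 3440, with a 95% exact interval of 1177 to 16687 that covers counting error only. It was 4626 without *Supt6*-KO mouse 4, the lowest of the group. The *Supt6*-KO mice differed among themselves by 10.3-fold, from 9.70 CPM in mouse 4 to 99.9 CPM in mouse 1. The transcript is short, at 540 bases, and it lies within the span of *Spink10* on the opposite strand of chromosome 18, without a shared exon. The whole *Supt6*-KO group held 36 counts of *Spink10*, against 5234 of *Spink7*.

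*Spink12*, a less studied Kazal-type gene, lies near *Spink5* on chromosome 18. Its counts were 8, 6, 2, 6 and 2 in the controls and 189, 201, 736 and 1905 in *Supt6*-KO mice 1 to 4. The means were 0.129 ± 0.0726 and 29.9 ± 28.3 CPM, and the fitted log2 difference was 7.82 (SE 0.77). Mouse 4, which held the least *Spink7*, held the most *Spink12*. The ratio of the summed counts, scaled by library size as for *Spink7*, was 249 (95% exact interval 167 to 389) with all mice and 131 (87.7 to 206) without mouse 4. The order of the 2 inhibitors turned within the group, since *Supt6*-KO mouse 1 had 12.7 counts of *Spink7* for each count of *Spink12* and mouse 4 had 0.142.

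*Spink5* was by far the most abundant of the 3 Spink genes in every control. Counts ran from 17486 to 21555 in the controls, with a median of 19862, and from 13710 to 16598 in the other group. The CPM means were 532 ± 46.5 and 641 ± 122, and the groups overlapped. The fitted log2 difference was 0.27 (SE 0.15) with TMM factors and -0.45 with library totals, so its direction depended on the scaling. Under library totals the median of all genes was itself -0.76. What differed was its share of the counts of the 3 Spink genes, which was 99.96% to 99.99% in the controls and 84.2%, 91.5%, 88.2% and 86.9% in *Supt6*-KO mice 1 to 4.

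*Tmprss11b* encodes one of the membrane-anchored trypsin-like enzymes of squamous epithelium. The controls held 2, 1, 0, 1 and 1 counts, and *Supt6*-KO mice 1 to 4 held 175, 161, 562 and 1452. The means were 0.0267 ± 0.0189 and 23.2 ± 21.1 CPM. No control library held more than 2 counts. The ratio of the summed counts, scaled by library size as for *Spink7*, was 927 (95% exact interval 397 to 2857) and 502 (214 to 1550) without mouse 4. *Tmprss11b* and *Spink12* kept nearly the same proportion in each knockout animal, where *Spink12* counts were 1.08, 1.25, 1.31 and 1.31 times those of *Tmprss11b* in mice 1 to 4.

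*Tmprss11d*, the mouse counterpart of the human airway trypsin-like protease, and *Tmprss11a* were also near 0 in the controls. *Tmprss11d* counts were 0, 2, 2, 1 and 4 in the controls and then 497, 480, 673 and 477 in the *Supt6*-KO mice (0.0478 ± 0.0379 and 22.9 ± 5.77 CPM). *Tmprss11a* counts were 5, 5, 3, 6 and 4 against 594, 301, 713 and 527 (0.124 ± 0.0312 and 22.7 ± 7.86 CPM). These were the evenest of the near-silent genes across the *Supt6*-KO mice. Ratios of summed counts, scaled by library size in the same way, were 466 (95% exact interval 245 to 1021) for *Tmprss11d* and 183 (122 to 289) for *Tmprss11a*. Leaving out any 1 *Supt6*-KO mouse kept these ratios between 414 and 513 and between 159 and 202.

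Of the Tmprss11 genes, *Tmprss11e*, *Tmprss11f* and *Tmprss11g* were already measured in control skin. *Tmprss11g* counts in the controls were 140, 114, 140, 96 and 62, against 456, 341, 403 and 845 in the *Supt6*-KO mice, or 2.98 ± 0.938 and 21.1 ± 6.31 CPM, a 7.06-fold ratio of means (fitted log2 difference 2.82, SE 0.27). *Tmprss11e* counts in the controls were 365, 292, 301, 334 and 315, against 579, 591, 1102 and 1744 in the *Supt6*-KO mice, or 8.63 ± 0.760 and 41.4 ± 18.3 CPM, a 4.80-fold ratio (log2 difference 2.26, SE 0.25). Neither gene overlapped between the groups, and in both the highest value was that of *Supt6*-KO mouse 4. Without that mouse the log2 differences were 2.59 and 1.99.

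*Tmprss11f* was the main Tmprss11 gene of control skin. Its counts were 2240, 2418, 2418, 2150 and 1779 in the controls and 4574, 4131, 2818 and 1561 in the *Supt6*-KO mice, or 59.3 ± 8.72 and 144 ± 66.1 CPM. Mouse 4, at 56.1 CPM, lay within the control range and the other 3 lay above it. The fitted log2 difference was 1.28 (SE 0.30), 1.54 without mouse 4 and 0.53 with library totals. *St14* counts in the controls were 3293, 2735, 2585, 2942 and 2367, against 1518, 1110, 1082 and 2171 in the *Supt6*-KO mice, and its CPM means of 74.9 ± 10.3 and 61.0 ± 12.7 overlapped. Its log2 difference was -0.29 (SE 0.16), and -0.96 with library totals.

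**Figure D1:**
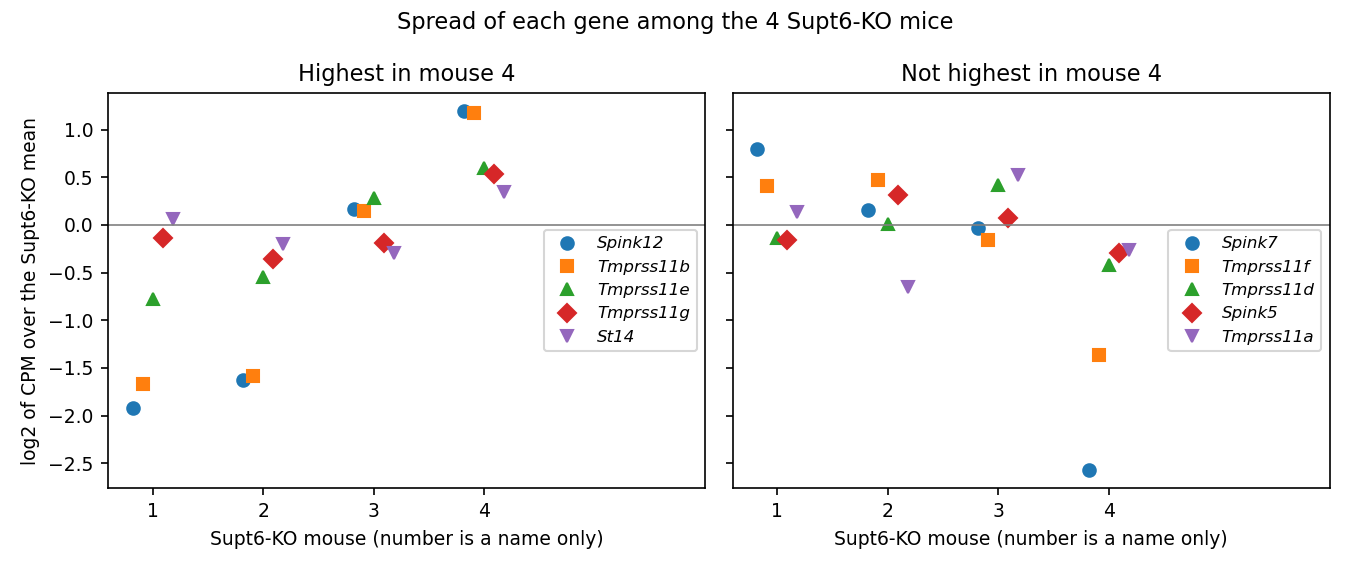
Log2 of each gene's CPM over its mean in the 4 *Supt6*-KO mice, one column of points per mouse, for the 5 genes highest in mouse 4 (left) and the other 5 (right). *Spink12* and *Tmprss11b* lie within 0.25 of each other in every mouse, and *Spink7* and *Tmprss11f* are lowest in mouse 4.

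The sum and the make-up of the Tmprss11 counts both differed between the groups. Summed over the 6 genes, the level was 55.1 to 79.3 CPM in the controls and 237 to 288 CPM in the *Supt6*-KO mice. *Tmprss11f* made up 81.4% to 85.4% of the Tmprss11 counts in the controls and 66.5%, 68.8%, 44.9% and 23.6% in *Supt6*-KO mice 1 to 4. *Tmprss11a*, *b* and *d* together made up 0.175% to 0.416% in the controls and 18.4%, 15.7%, 31.1% and 37.2% in the *Supt6*-KO mice. Mouse 4 thus had the lowest share of *Tmprss11f* and the highest share of the genes that were nearly silent in control skin. It was the highest of its group in 5 of the 10 genes and the lowest in 4, while over all genes tested it was the highest in 35.4% and the lowest in 33.9%.

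Levels of different genes were compared per length, in the deposited TPM values, which were used for the 5 controls and *Supt6*-KO mouse 4. In the controls *Spink5* stood first at 190 ± 26.9 TPM, followed by *St14* (32.0 ± 4.48), *Tmprss11f* (23.5 ± 1.13), *Tmprss11e* (4.44 ± 0.661) and *Tmprss11g* (1.81 ± 0.461), and the ranges of these 5 did not overlap. *Spink7* (0 to 1.20 TPM) and *Spink12* (0.18 to 0.79 TPM) overlapped, and *Tmprss11a*, *d* and *b* had means of 0.082, 0.046 and 0.022 TPM, the range of *Tmprss11d* overlapping both of the others. In *Supt6*-KO mouse 4 the order was *Spink7* (242 TPM), *Spink12* (128), *Spink5* (92.8), *Tmprss11b* (21.9), *St14* (16.8), *Tmprss11e* (16.1), *Tmprss11f* (11.3), *Tmprss11g* (9.46), *Tmprss11d* (7.92) and *Tmprss11a* (6.45). The TPM of *Spink7* is uncertain. Each TPM unit of it corresponded to 1.11 counts in mouse 4, against 156 for *Spink5* and 14.9 for *Spink12*, so its value rests on a very short effective length. A unit was 66.2 counts of *Tmprss11b* and 139 of *Tmprss11f*. The coding transcripts of *Spink12*, *Spink5*, *Tmprss11b* and *Tmprss11f* have 1007, 4785, 4171 and 3605 bases. With these lengths mouse 4 would hold less *Spink12* than *Spink5* and less *Tmprss11b* than *Tmprss11f*. The order of both pairs is thus uncertain too. TPM is also relative to all other transcripts of a library, so the group difference of a gene is read from CPM and not from TPM.

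With the lengths that the TPM of mouse 4 implies, the genes could be set against *Spink5* within each mouse. *Spink12* was 0.106% to 0.400% of *Spink5* per length in the controls and 14.5%, 12.7%, 52.4% and 138% in *Supt6*-KO mice 1 to 4. With the coding transcript lengths these percentages would be lower, and *Spink12* would stay below *Spink5* in every mouse. *Tmprss11f* was 10.5% to 15.5% in the controls and 37.5%, 28.0%, 21.5% and 12.1% in the *Supt6*-KO mice, and *Tmprss11b* was at most 0.0225% in the controls and 3.01%, 2.28%, 8.98% and 23.6%. Only in mouse 4 did *Tmprss11b* exceed *Tmprss11f* on this scale, and with the coding transcript lengths it did so in no mouse. *St14* was 14.9% to 18.9% in the controls and 13.3%, 8.05%, 8.83% and 18.1% in the *Supt6*-KO mice. *Spink7* is left out here for the reason given above.

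**Figure D2:**
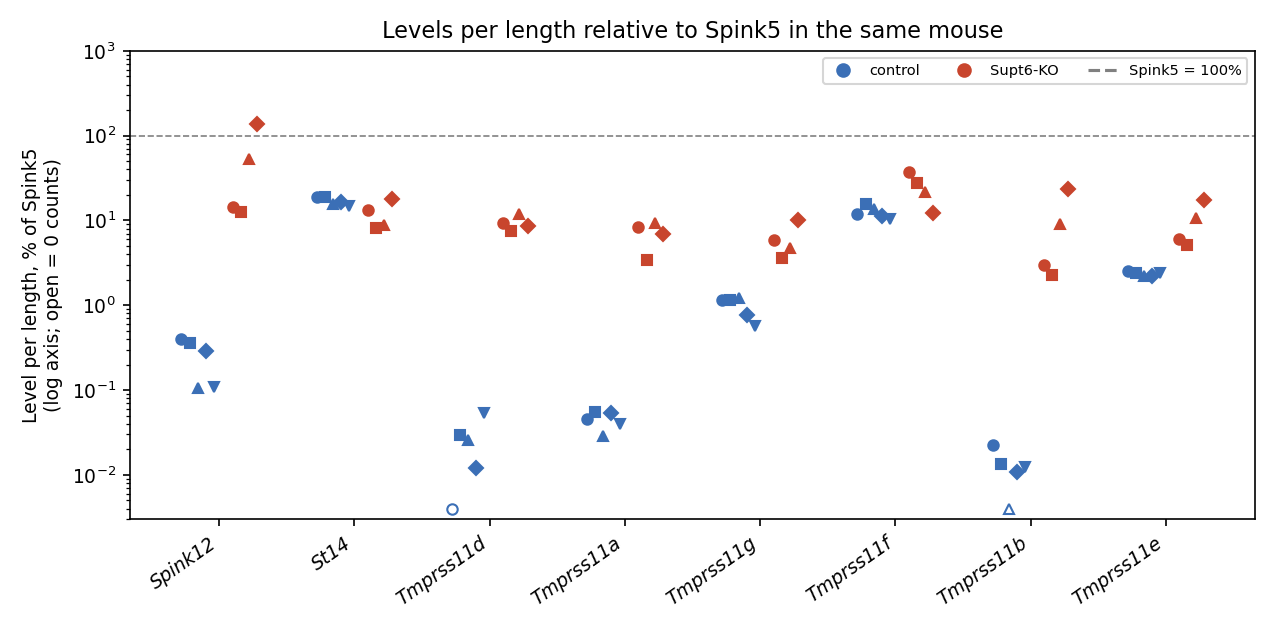
Level per length of 8 genes as a percentage of *Spink5* in the same mouse, on a log axis, with controls in blue, *Supt6*-KO mice in red and open markers for 0 counts. With the lengths that the TPM of *Supt6*-KO mouse 4 implies, *Spink12* reaches 138% of *Spink5* in that mouse. With the coding transcript lengths it stays below *Spink5*. Mouse 4 has the highest *Tmprss11b* and the lowest *Tmprss11f* of the *Supt6*-KO mice.

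The 6 Tmprss11 genes lie side by side on the minus strand of chromosome 5 (GRCm38.p6, RefSeq), in the order *Tmprss11d* (86302854 to 86373387), *a* (86410410 to 86469175), *g* (86485877 to 86518600), *f* (86521226 to 86632424), *b* (86659522 to 86676298) and *e* (86705186 to 86745807). *Tmprss11c*, at 86231481 to 86289308, closes the row and was seen as 2 counts over all controls and 1 over all *Supt6*-KO mice. Of the genes near 0 in the controls, *d* and *a* are neighbours beside *c*, whereas *b* lies between *f* and *e*. *St14* lies alone on chromosome 9 (31088590 to 31131811, minus strand). No stretch of 100 bases of a coding transcript of any of the 10 genes was found in a transcript of another gene, and none of their exons overlapped an exon of another gene in GENCODE M21, although *Tmprss11e* spans 2 noncoding genes and *St14* spans a pseudogene.

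The bases before the start sites are shown for *Tmprss11d* and *Tmprss11b*, which were near 0 in the controls, and for *Tmprss11f*, the one most abundant there, since they are genes of one cluster with different levels. Each is the 250 bases upstream of the RefSeq start in GRCm38.p6, read on the minus strand from 5′ to 3′: chr5:86373388-86373637 for *Tmprss11d*, chr5:86676299-86676548 for *Tmprss11b* and chr5:86632425-86632674 for *Tmprss11f*. Capitals mark matches to the searched motifs. The window of *Tmprss11a* is not shown, because the start it was taken from lies within the span of the gene.
Tmprss11d: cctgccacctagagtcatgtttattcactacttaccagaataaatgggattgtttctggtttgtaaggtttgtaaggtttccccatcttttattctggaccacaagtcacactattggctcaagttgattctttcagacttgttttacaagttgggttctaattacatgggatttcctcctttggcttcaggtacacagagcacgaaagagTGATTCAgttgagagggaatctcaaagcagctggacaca
Tmprss11b: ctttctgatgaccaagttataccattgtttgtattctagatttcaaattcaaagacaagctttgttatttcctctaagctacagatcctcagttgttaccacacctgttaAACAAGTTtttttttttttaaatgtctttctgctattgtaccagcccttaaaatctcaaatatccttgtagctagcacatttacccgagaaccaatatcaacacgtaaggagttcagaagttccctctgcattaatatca
Tmprss11f: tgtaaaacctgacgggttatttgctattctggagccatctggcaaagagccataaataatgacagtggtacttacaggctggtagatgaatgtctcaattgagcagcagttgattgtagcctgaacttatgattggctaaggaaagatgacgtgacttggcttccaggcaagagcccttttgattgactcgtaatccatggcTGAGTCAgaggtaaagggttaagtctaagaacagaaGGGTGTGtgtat
The motifs were AP-1 (TGANTCA), grainyhead (AACNNGTT), KLF (GGGTGTG), C/EBP (TTGCNNAA), the TATA box (TATAAA) and NF-kB, each searched on both strands, and no marked matches overlap. *Tmprss11d* and *Tmprss11f* each held an AP-1 match, 39 to 33 and 48 to 42 bases before the start, and *Tmprss11f* also held a KLF match at 12 to 6. *Tmprss11b* held a grainyhead match at 140 to 133 bases, and *Tmprss11g* held 2, at 56 to 49 and 47 to 40. The window of *Tmprss11a*, not shown, held another at 174 to 167 bases before the start used for it. Of 32851 promoter windows of the same length, 6.75% held the AP-1 letters, 3.64% the grainyhead letters and 6.93% the KLF letters. The C/EBP (9.56% of windows), NF-kB (1.21%) and TATA (12.4%) letters were not in these windows. A match is a description of the sequence, and the AP-1 letters stood before both *Tmprss11d*, near 0 in the controls, and *Tmprss11f*.

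The 5 genes whose pattern over the 9 mice was most like that of *Spink7*, by the root mean square difference of centred log2(CPM + 0.5) values, were *Nmu* (0.43), *Wfdc12* (0.46), *Il1f6* (0.50), *Lce3c* (0.59) and *Sprr2b* (0.64). *Nmu* encodes neuromedin U, *Wfdc12* a WAP-domain protein, *Il1f6* the cytokine IL-36 alpha, and *Lce3c* and *Sprr2b* proteins of the cornified envelope. Each had its lowest *Supt6*-KO level in mouse 4, for example 8.44 CPM of *Nmu* there against 50.6 to 58.7 CPM in the other 3. Since the genes were picked for their likeness to *Spink7*, this shared low is not a separate result. Of the genes described here the nearest to *Spink7* was *Tmprss11d* (0.90), ahead of *Tmprss11a* (1.03) and *Tmprss11b* (1.71).

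For *Tmprss11b* the nearest gene of all those tested was *Spink12* (0.12), followed by *Aldh1a3* (0.46), *Sprr2k* (0.49), *Defb4* (0.50) and *Klk12* (0.56). *Aldh1a3* encodes an enzyme that makes retinoic acid, *Defb4* a beta-defensin and *Klk12* a kallikrein. Each had its highest *Supt6*-KO level in mouse 4, for example 211 CPM of *Aldh1a3* there against 32.0 to 64.4 CPM in the other 3. The Sprr2 genes are near-copies of one another, so the reads of *Sprr2b* and *Sprr2k* may be divided wrongly between them. These rankings describe 9 mice, and the high level in mouse 4 is likewise part of how the genes were picked.

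The rest of the pathway was read from 7 lists of 63 genes, tested with edgeR over all genes. The lists, like the 10 genes, were chosen with earlier results of these data known. Their calls are therefore a description of single genes, and the counts of calls support no statement about a list. A gene was called when its adjusted p was under 0.05 and its change at least 2-fold, which 20.9% of the 16426 tested genes met as higher in *Supt6*-KO and 24.9% as lower, or 3427 and 4088 genes, against 1470 and 6802 with library totals. Of the other Spink genes, 5 of the 6 tested were called higher and 0 lower, with a median log2 fold change of 3.47, or 2.77 with *Spink8* at its lower bound. *Spink6*, an inhibitor of kallikreins in skin, rose from 0.377 ± 0.159 to 6.74 ± 1.31 CPM (log2 fold change 4.15, SE 0.29, adjusted p = 6.6e-07) and was above every control in all 4 mice. The other calls rest on few reads, and *Spink8*, *Spink10* and *Spink13* entered the test only through the *Supt6*-KO libraries, so they could be called only as higher and the count of 5 is not read against the 20.9%. Of *Spink10* the controls held 2 counts and the *Supt6*-KO mice 36 (a ratio of 35.5 after scaling by library size, exact interval 9.14 to 304). *Spink8* had 0 and 10 counts. With the same scaling it was at least 6.57-fold higher against a floor of 3 counts over the group, or 3.73-fold without mouse 4. *Spink13* had 7 and 26 counts, and *Spink4* had 10 and 35, with 0 in *Supt6*-KO mouse 4. The call of *Spink4* was lost without mouse 1 (adjusted p = 0.084), without mouse 2 (0.082) and with library totals (0.07), and that of *Spink13* with the replicate block (0.056). *Spink2* did not pass (log2 difference 0.95), *Spink11* and *Spink14* were too low to test, and *Spink1* had no row.

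Among the other membrane-anchored serine proteases, 5 of the 8 tested were called higher and 2 lower, with a median of 1.36, and with library totals 3 were higher and 3 lower. Without *Supt6*-KO mouse 4, 3 of the 7 tested were higher and 2 lower. *Tmprss4* rose from 173 ± 30.7 to 514 ± 128 CPM (log2 fold change 1.57, SE 0.20, adjusted p = 3.3e-05) and *Tmprss13* from 64.5 ± 9.51 to 223 ± 63.0 CPM (1.79, SE 0.21, adjusted p = 1.5e-05). Both are enzymes of stratified epithelium, and both were above every control in all 4 *Supt6*-KO mice. *Tmprss7* rose from 0.692 to 7.27 CPM and *Tmprss2* from 4.08 to 9.10 CPM, the latter with 17.0 CPM in mouse 4, and without that mouse *Tmprss2* no longer reached a 2-fold change (log2 fold change 0.66, adjusted p = 0.014). *Tmprss2* also fell short with the replicate block (0.88). *Tmprss12* was called on 1 and 10 counts and entered the test only through the *Supt6*-KO libraries. Corin, known for processing natriuretic peptides and for its place in the dermal papilla, fell to 10.3% of the control mean (49.2 ± 18.7 to 5.06 ± 0.819 CPM, adjusted p = 1.8e-06), and *Hpn* (hepsin) fell from 1.55 to 0.482 CPM. *Tmprss5* did not pass, *Tmprss3*, *6*, *9*, *11c* and *15* were too low to test, and *Tmprss11bnl* had no row.

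Of the 9 matriptase partners and substrates, 3 were called higher and 2 lower, beside 20.9% and 24.9% of all tested genes. Their median was 0.65, and with library totals 1 was higher and 2 lower. Nothing is read about the list from these counts. *Prss8*, which encodes prostasin, rose from 25.9 ± 1.57 to 55.3 ± 15.0 CPM (log2 fold change 1.10, SE 0.18, adjusted p = 0.00018). Of the subunits of the epithelial sodium channel, a target of these proteases, *Scnn1b* rose from 1.69 ± 0.192 to 9.72 ± 3.19 CPM (adjusted p = 5e-06) and *Scnn1g* from 5.12 to 11.3 CPM, although in mouse 4 it lay below every control at 4.28 CPM, while *Scnn1a* fell from 47.3 ± 4.37 to 21.0 ± 7.77 CPM (adjusted p = 0.00054). *F2rl1*, the gene of the protease-activated receptor PAR-2, fell from 52.5 ± 3.49 to 17.0 ± 7.08 CPM (log2 fold change -1.62, adjusted p = 6.7e-05). The inhibitors *Spint1* and *Spint2*, which encode HAI-1 and HAI-2, had log2 differences of 0.65 and 0.60, short of 2-fold, and *Plau* and *Epcam* had 0.96 and 0.39. With library totals *Spint1*, *Spint2* and *Epcam* stood at -0.04, -0.12 and -0.32. Without *Supt6*-KO mouse 1, *Prss8* (0.99) and *Scnn1g* (0.94) fell just short of a 2-fold change, and 3 of the 9 genes were called. *Scnn1g* also fell short without mouse 2 (0.96) and with the replicate block (0.98).

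All 10 kallikreins of the list were called higher, with a median of 3.87, and in each every *Supt6*-KO mouse was above every control. Some of them are known targets of the Spink inhibitors. The summed level rose from 720 ± 127 to 5122 ± 378 CPM, with *Klk7* the most abundant. *Klk5* and *Klk7*, which shed corneocytes and are inhibited by LEKTI, had log2 fold changes of 1.73 (SE 0.23) and 2.31 (SE 0.21), and *Klk6*, *Klk12*, *Klk13* and *Klk14* had 5.71 to 7.26. *Klk14* held 17 counts in all controls together and ran from 2.34 CPM in *Supt6*-KO mouse 1 to 26.5 CPM in mouse 4. *Klk10* had a log2 fold change of 3.21, or 2.34 without mouse 4.

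Of the 7 genes listed for the corneodesmosome, the junction whose extracellular parts these proteases cut, 2 were called higher and 2 lower, with a median of 0.11. Of all tested genes 20.9% were called higher and 24.9% lower, and nothing is read about this list from its counts. *Dsc1* rose from 393 ± 13.1 to 1681 ± 461 CPM and *Dsg1b* from 318 to 1099 CPM, whereas *Pkp1* and *Jup*, on the cytoplasmic side of the desmosome, fell to 46.5% and 30.5% of the control mean. *Cdsn*, the gene of corneodesmosin, had a log2 difference of 0.10 (SE 0.17), and -0.58 with library totals. The Dsg1 genes are near-copies, and reads may be divided wrongly among *Dsg1a*, *Dsg1b* and *Dsg1c*. Of the 7 WAP-domain antiproteases, another family of small inhibitors, 3 were called higher and 0 lower, with a median of 1.01, and with library totals 2 were higher and 2 lower. *Slpi*, an inhibitor of neutrophil elastase, rose from 2.82 ± 0.608 to 213 ± 73.1 CPM (adjusted p = 5.7e-08), *Wfdc12* rose from 0.766 to 86.3 CPM and *Wfdc5* was just past 2-fold (1.01). *Wfdc5* fell short of 2-fold with library totals (0.29, adjusted p = 0.089), with upper-quartile factors and with the block (0.93 in each), with 10 counts required in every mouse (0.96), and without control mouse 5 (0.96) or *Supt6*-KO mouse 1 (0.89) or 2 (0.94). *Wfdc21* had a log2 difference of 1.33 and did not pass (adjusted p = 0.087), with 7.08 CPM in mouse 4 against 153 to 295 CPM in the other 3.

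Because *Spink7* and several Tmprss11 genes are known from oral, oesophageal and airway epithelium, genes of those tissues were read beside them. Of 7 oral and oesophageal genes, 4 were called higher and 0 lower, with a median of 1.21, and with library totals 2 were higher, without *Pax9* (0.72) and *Krt13* (0.27). *Sprr3*, a cornified envelope gene of those epithelia, had 1 control count against 378 over all *Supt6*-KO mice, of which 311 were in mouse 4. Scaled by library size, the ratio was 745 (exact interval 133 to 29517), and without that mouse it was 187 (32.5 to 7507). *Krt76*, a keratin of the palate, had 0 and 29 counts. With the same scaling it was at least 19.1-fold higher against a floor of 3 counts over the group, or 9.32-fold without mouse 4. Both entered the test only through the *Supt6*-KO libraries, so they could be called only as higher, and with 10 counts required in every mouse 1 gene of the list was called. *Pax9* and *Krt13* had log2 fold changes of 1.36 and 1.02. That of *Pax9* was 0.94 without mouse 4, short of 2-fold, and the call of *Krt13* was lost when any 1 of 4 of the 9 mice was left out. The call of *Krt13* was also lost with the replicate block (0.94), with upper-quartile factors (0.94) and with 10 counts required in every mouse (0.96). The defining keratin *Krt4* stayed low, at 0.616 ± 0.304 and 0.922 ± 0.652 CPM, and did not pass, nor did *Crnn* and *Mal*. The summed level was 34.6 ± 17.0 and 71.9 ± 46.7 CPM, with *Mal* the most abundant on average. It ran from 22.0 to 64.2 CPM in the controls and was 29.4, 43.8, 80.3 and 134 CPM in *Supt6*-KO mice 1 to 4. The groups thus overlapped, and 102 CPM of the sum in mouse 4 was *Mal*.

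Of the 5 airway and salivary markers, *Aqp5* rose from 0.608 ± 0.148 to 46.5 ± 18.3 CPM and *Muc5b* was called higher on 1 and 66 counts, having entered the test only through the *Supt6*-KO libraries, while *Scgb1a1* fell from 2.72 to 0.467 CPM. *Foxj1*, which defines ciliated cells, and *Scgb3a2* were at 0 in all 4 *Supt6*-KO mice and held only 5 and 11 counts in all controls together, and neither was called. The summed level was 3.42 ± 0.238 and 47.7 ± 18.4 CPM, of which *Scgb1a1* was the largest part in the controls and *Aqp5* in the *Supt6*-KO mice. Of 6 neutrophil markers 5 were called higher and *Mpo* lower, beside 20.9% and 24.9% of all tested genes. Their summed level was 27.4 ± 12.3 CPM in the controls and 4560, 5157, 6395 and 2512 CPM in *Supt6*-KO mice 1 to 4. *S100a9* was the most abundant, and *Ly6g* had 20 counts in the *Supt6*-KO group, 15 of them in mouse 3. *Ly6g* had 1 control count and also entered the test only through the *Supt6*-KO libraries. *S100a8* and *S100a9* are also made by stressed keratinocytes. Mouse 4 was lowest in this sum, as it was in *Spink7*, and the part of infiltrating cells in the levels of the 10 genes was not tested.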

How the data were processed

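Skin RNA of 5 control and 4 *Supt6*-KO mice was sequenced. Per the labels and the study's methods, the authors aligned reads with Bowtie2 (2.3.4.3) and made the deposited estimated counts per gene with RSEM (1.3.1), unnormalized. The labels name mm10, HISAT and DESeq2 as well, and the annotation release is not given in the sources used here. The authors also deposited TPM values per gene, used here for 6 mice, which serve levels per length only. Estimated counts, 9.00% of them not whole, were rounded. RefSeq matched 17904 of 17943 identifiers.

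Genes with at least 10 counts over the 9 mice (16426) were tested with edgeR 4.0.16 (R 4.3.3; quasi-likelihood, TMM, Benjamini-Hochberg, no covariates). Calls needed an adjusted p under 0.05 and a log2 fold change of at least 1 in size. The script was tested on simulated data. Whether replicates were separate litters or batches is not stated, so p-values measure the spread between these mice.

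The 10 genes and all lists were chosen with earlier results of these data known. Named genes are the 10, *Supt6*, the genes of the 7 lists, the markers, and the 5 nearest profiles of *Spink7* and *Tmprss11b*. Results were recomputed with upper-quartile factors, with library totals, with DESeq2 1.42.0, with 2 other count filters, with the replicate number as a block, and with each mouse left out. Tables used Python 3.11.15, pandas 2.3.3 and scipy 1.17.1.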

Additional observations from a re-analysis of the deposited data

How the results depend on the processing

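Of 150 counts recomputed under 6 other settings and with each of the 9 mice left out, 142 stayed within 1.5 times the reported count and 8 did not. These were counts of calls, or for the 10 genes of log2 differences of at least 1. The counts of a list were totals over both directions. Counts by direction moved more in places. Without *Supt6*-KO mouse 4, for example, 3 membrane-anchored proteases were called higher instead of 5. None of the list genes that were called reversed in a setting where it was tested. Of those not called, *Spint1*, *Spint2*, *Epcam*, *Cdsn*, *Dsg1a*, *Dsg1c*, *Wfdc3*, *Krt4* and *Crnn* turned negative with library totals. *Dsg1c* was also negative without *Supt6*-KO mouse 4 (-0.52) and with the replicate block (-0.08), *Cdsn* without mouse 1 (-0.07), *Dsg1a* without mouse 2 (-0.09), and *Wfdc3* without mouse 2 (-0.12) and with the block (-0.02). Library totals moved the median log2 difference of all genes from -0.07 to -0.76, gave 1470 genes higher and 6802 lower, and left 3 matriptase partners and 2 oral genes called. Requiring 10 counts in every mouse removes the genes near 0 in the controls by construction, and left 0 other Spink genes, 1 oral gene and 3 of the 10 genes with a log2 difference of at least 1. With each mouse left out in turn, 3248 to 3476 genes were higher and 3845 to 4204 lower, with 4 to 6 other Spink genes, 5 to 7 membrane-anchored proteases, 3 to 6 matriptase partners, 10 kallikreins, 4 corneodesmosome genes, 2 to 4 WAP-domain genes, 3 to 5 oral genes and 8 of the 10 genes. The genes that were tested but not called in at least 1 setting were *Krt13*, *Pax9*, *Prss8*, *Scnn1g*, *Spink4*, *Spink13*, *Tmprss2*, *Tmprss4* and *Wfdc5*. *Spink8* and *Tmprss12* dropped below the count filter when 1 of 3 *Supt6*-KO mice was left out, and with 10 counts required in every mouse *Spink4*, *Spink6*, *Spink8*, *Spink10*, *Spink13*, *Tmprss12*, *Hpn*, *Klk12*, *Klk14*, *Krt76* and *Sprr3* were not tested.

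Whether mice of the same number pair cannot be told from 4 pairs. Deviations from the group means correlated at 0.013 to 0.234 over these 4 pairs (mean 0.133). For other numbers the range was -0.234 to 0.279 (mean -0.028), which covers that of the same numbers. With the replicate number as a block, 3134 genes were higher and 3834 lower, with 4 other Spink genes, 6 membrane-anchored proteases, 4 matriptase partners, 10 kallikreins, 4 corneodesmosome genes, 3 WAP-domain genes (2 higher and 1 lower) and 3 oral genes called, and 8 of the 10 genes at a log2 difference of at least 1.

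Depth limits the controls of *Spink7*, *Tmprss11b* and *Tmprss11d*, where 0 to 4 counts per library set no level, and the counting intervals do not cover the spread between mice.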
